A study of Arabidopsis thaliana with 18 samples.

Results

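A set of 8 genes of the N-glycosylation pathway was followed across all 18 libraries, 8 of the 27416 gene identifiers counted. They were taken by locus identifier. They encode both copies of GPT, the enzyme that tunicamycin inhibits, the mannosyltransferase ALG3, the nucleotide sugar transporters UTR1 and UTR3, the glucosyltransferase EBS1 and the glucosidases GCS1 and RSW3. All 8 were abundant enough to be tested, among 20615 genes tested.

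The libraries came from polyA RNA of whole Arabidopsis thaliana seedlings, grown for 7 days on solid medium and then kept for 6 h in liquid medium. The 3 genotypes were wild type (WT), ire1b, and the ire1a/ire1b double mutant (ire1a1b below). Each received either the solvent DMSO or 5 µg/mL tunicamycin (TM), with 3 libraries in each of the 6 groups. The labels gave no allele names and no accession background, and did not say how many seedlings were pooled in a library. IRE1A and IRE1B encode membrane sensors of the endoplasmic reticulum (ER) that splice the mRNA of the transcription factor bZIP60 when unfolded proteins accumulate.

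N-glycosylation starts on the cytosolic face of the ER, where GPT joins GlcNAc-1-phosphate from UDP-GlcNAc to the lipid dolichol phosphate. The sugar chain is then extended on this lipid by ALG enzymes, moved into the lumen, finished with mannoses and glucoses, and transferred to asparagines of new proteins by oligosaccharyltransferase. GCS1 (glucosidase I) removes the outermost glucose and RSW3 (the catalytic subunit of glucosidase II) the inner ones, and the lectins calnexin and calreticulin hold glycoproteins that keep the last glucose. EBS1 (UDP-glucose:glycoprotein glucosyltransferase) puts a glucose back on proteins that are still misfolded, with UDP-glucose that UTR1 and UTR3 carry into the ER. TM resembles the substrate UDP-GlcNAc and blocks GPT, so that unglycosylated proteins accumulate in the ER.

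Each library held between 16.35 and 24.85 M gene counts. Replicate 1 of WT and of ire1a1b, with either treatment, lay away from the other 14 libraries on the second principal component, at 27.2 to 43.1 against -24.7 to 2.99. IRE1A stood at 79.7 to 93.1 CPM in the WT libraries, at 89.2 to 103 in those of ire1b and at 19.9 to 24.7 in those of ire1a1b. IRE1B was not lower in the libraries labelled as mutants (28.0 to 36.7 CPM in WT libraries, 35.5 to 47.2 in those of ire1b and 35.5 to 47.4 in those of ire1a1b), so RNA level did not check that label, and the ire1b groups are named here as labelled. The shoot markers RBCS1A, LHCB1.3, LHCB2.1 and PSAD1 summed to 8447 to 13840 CPM over all groups and 0 of 4 were called for TM in any genotype by edgeR or DESeq2, with 0 at an unadjusted p below 0.05. The 4 root hair markers, COBL9, EXPA7, RHS19 and LRX1, fell with TM in each genotype, from a sum of 56.5 to 74.2 CPM in DMSO to 18.6 to 29.3 CPM in TM. Of the endodermis markers CASP1, CASP2, CASP4 and ESB1, 3 of 4 fell in each genotype, from 19.6 to 26.1 CPM to 6.49 to 14.98 CPM. Of all tested genes, 5.77%, 11.6% and 6.59% fell in WT, ire1b and ire1a1b. In WT, edgeR did not call CASP1 without replicate 2 (adjusted p = 0.057) or 3 (0.069) of WT with DMSO. Nor did it without replicate 2 (0.083) or 3 (0.11) of WT with TM. COBL9 was not called in WT in a fit to the compared groups alone (0.051). None of the 12 markers was at 0 in any group, and the part of this shift in the results below was not tested.

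Values below are counts per M gene counts (CPM), scaled by trimmed mean of M-values (TMM), in the order of replicates 1, 2 and 3. Tests are edgeR quasi-likelihood tests over all 18 libraries, with no term for replicate number. Benjamini-Hochberg adjustment of p was over every gene in the fit, and a gene with adjusted p below 0.05 is called. In WT, TM raised 4 of the 8 genes and lowered 2, where 6.13% of all tested genes rose and 5.77% fell. Of the 2 that fell, 1 or 0 were called when any single WT library was left out (0 without replicate 1 or replicate 2 of WT with TM). In ire1b, 4 rose and 1 fell, where 10.9% of all tested genes rose and 11.6% fell. In ire1a1b, 4 rose and 1 fell as well, where 8.27% of all tested genes rose and 6.59% fell. The 4 genes that rose were GPT, UTR1, UTR3 and EBS1 in each genotype. In whole seedlings, a change in RNA per cell and a change in the number of cells that hold the RNA cannot be told apart.

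**Figure D1:**
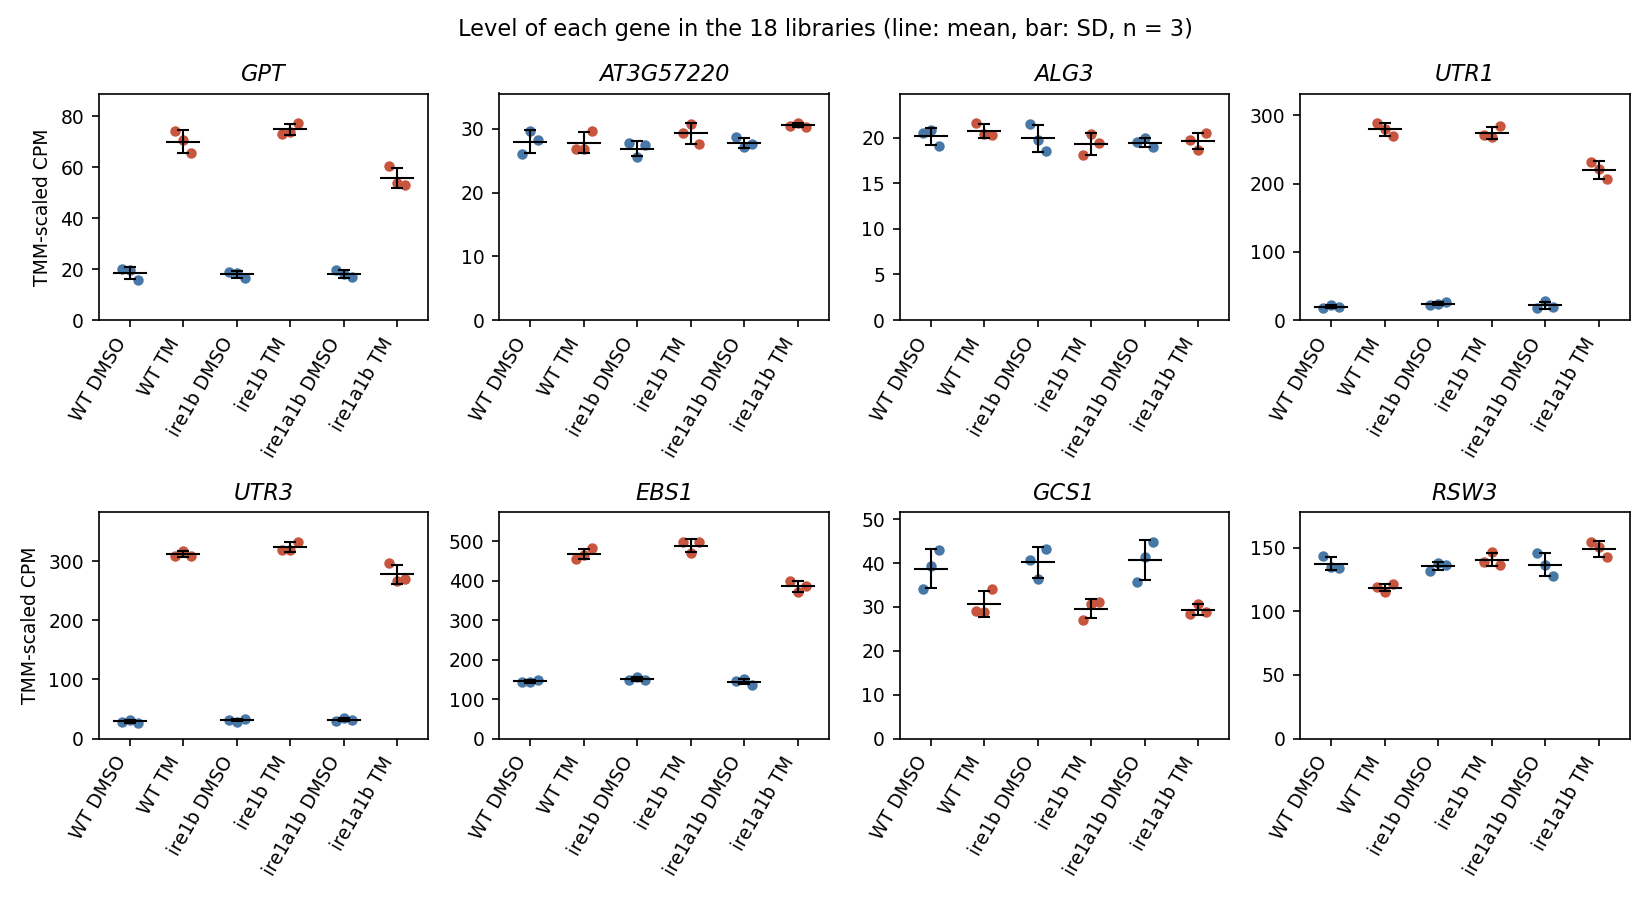
CPM of each of the 8 genes in every library, by genotype and treatment, with 3 points and their mean per group. GPT, UTR1, UTR3 and EBS1 lie without overlap above their DMSO libraries in every genotype, whereas AT3G57220 and ALG3 stay near their DMSO levels. In ire1a1b, AT3G57220 also lies above its DMSO libraries without overlap (30.4 to 30.9 against 27.2 to 28.7 CPM), by a difference that did not pass the test.

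The 250 bases upstream of the annotated start of 5 of these genes are shown here first. EBS1, UTR1 and UTR3 hold matches to the motifs named below, UTR3 only to motifs added after the sequences had been seen. GPT, which rose, and AT3G57220, which did not pass the test, hold none. ALG3, which did not pass the test either, also holds matches. A relation of the motifs to the responses was not tested. The sequences are from RefSeq, build TAIR10.1, 5′ to 3′ on the strand of the gene, and capitals mark matches to the motifs named below.
UTR1, chr2:801277-801526, plus strand: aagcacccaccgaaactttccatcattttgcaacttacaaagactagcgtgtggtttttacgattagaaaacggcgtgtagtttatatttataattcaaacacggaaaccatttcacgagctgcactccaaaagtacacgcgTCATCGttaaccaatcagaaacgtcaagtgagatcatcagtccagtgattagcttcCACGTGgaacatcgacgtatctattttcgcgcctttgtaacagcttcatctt
UTR3, chr1:4913168-4913417, minus strand: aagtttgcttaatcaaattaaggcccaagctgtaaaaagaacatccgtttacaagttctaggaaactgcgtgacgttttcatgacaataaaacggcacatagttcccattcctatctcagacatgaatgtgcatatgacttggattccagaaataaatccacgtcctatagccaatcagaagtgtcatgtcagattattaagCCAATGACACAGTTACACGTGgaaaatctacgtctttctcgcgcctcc
EBS1, chr1:26841300-26841549, plus strand: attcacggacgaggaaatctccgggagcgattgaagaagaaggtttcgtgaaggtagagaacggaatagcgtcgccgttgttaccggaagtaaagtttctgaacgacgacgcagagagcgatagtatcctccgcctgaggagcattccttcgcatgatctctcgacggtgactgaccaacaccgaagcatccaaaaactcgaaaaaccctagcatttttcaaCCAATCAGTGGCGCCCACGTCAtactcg
GPT, chr2:17301322-17301571, plus strand: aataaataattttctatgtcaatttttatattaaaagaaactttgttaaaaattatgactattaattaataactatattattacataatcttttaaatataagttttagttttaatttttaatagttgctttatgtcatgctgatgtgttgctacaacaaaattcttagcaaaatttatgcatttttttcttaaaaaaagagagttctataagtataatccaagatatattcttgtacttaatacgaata
AT3G57220, chr3:21174145-21174394, plus strand: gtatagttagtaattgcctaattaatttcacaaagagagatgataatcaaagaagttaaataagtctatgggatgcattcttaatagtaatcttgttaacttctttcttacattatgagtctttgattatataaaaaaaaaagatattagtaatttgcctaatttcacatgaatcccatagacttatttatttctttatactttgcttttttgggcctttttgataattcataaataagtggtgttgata

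The motifs, searched on both strands, were the ER stress response element ERSE (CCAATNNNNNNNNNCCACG), a form of it that needs only CACG at the end (CCAATNNNNNNNNNNCACG), ERSE-II (ATTGGNCCACG), the unfolded protein response element UPRE (TGACGTGG), UPRE-III (TCATCG) and the G-box core (CACGTG). The CACG form and the G-box core were added after the sequences had been seen. Among 27561 upstream windows of the same length, ERSE was found in 0.305%, its CACG form in 0.686%, ERSE-II in 0.0617%, UPRE in 1.24%, UPRE-III in 6.47% and the G-box core in 6.46%. EBS1 held a full ERSE from 28 to 10 bases before its start, and a UPRE on the opposite strand, from 14 to 7 bases before it, that overlaps the end of the ERSE. UTR3 held the CACG form of ERSE from 48 to 30 bases before its start, overlapping a G-box core at 33 to 28. UTR1 held a UPRE-III at 108 to 103 and a G-box core at 52 to 47. ALG3, which TM did not move past the test, held 2 G-box cores, at 110 to 105 and at 31 to 26. No match was found in the windows of GPT, AT3G57220, GCS1 or RSW3, which says only that these letters are not in these windows. The windows of UTR1 and UTR3 could be aligned over 203 positions with 142 identical bases (70.0%), whereas the GPT pair aligned over only 35 positions, 26 of them identical.

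The question at the first step was whether the 2 genes for the TM target responded alike. GPT (AT2G41490, chromosome 2, 17301572 to 17304211, plus strand) rose 3.79-fold in WT, 4.16-fold in ire1b and 3.07-fold in ire1a1b, whereas AT3G57220 (chromosome 3, 21174395 to 21177194, plus strand), the other GPT gene, did not pass the test in any genotype. GPT stood at 20.02, 19.5 and 15.8 CPM in WT with DMSO and at 74.4, 70.6 and 65.4 with TM. In ire1b it stood at 19.1, 18.5 and 16.4 with DMSO and at 73.2, 74.0 and 77.4 with TM. In ire1a1b it stood at 19.8, 18.02 and 16.8 with DMSO and at 60.4, 53.9 and 53.2 with TM. The DMSO and TM libraries did not overlap in any genotype, and the 3 TM libraries of ire1a1b lay below all 6 TM libraries of WT and ire1b. The share of all tested genes with that order was not counted. The edgeR test of the difference between the ire1a1b and WT responses did not pass (adjusted p = 0.23).

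On the log2 scale the GPT responses were 1.92 ± 0.09 (SE, adjusted p = 5e-10) in WT, 2.06 ± 0.09 (1.8e-10) in ire1b and 1.62 ± 0.09 (4.8e-09) in ire1a1b. AT3G57220 stood at 26.0, 29.7 and 28.3 CPM in WT with DMSO and at 26.9, 26.8 and 29.7 with TM. Its libraries overlapped between treatments in WT and in ire1b (25.6 to 27.8 CPM with DMSO, 27.6 to 30.8 with TM). In ire1a1b the TM libraries, at 30.4 to 30.9 CPM, lay above the DMSO libraries at 27.2 to 28.7, by a difference that did not pass the test. Its log2 changes were -0.01 (95% interval -0.15 to 0.13, adjusted p = 0.95) in WT, 0.12 (-0.02 to 0.26, 0.21) in ire1b and 0.13 (-0.00 to 0.27, 0.2) in ire1a1b. The 95% intervals of the pair did not overlap in any genotype, those of GPT being 1.72 to 2.12, 1.85 to 2.26 and 1.42 to 1.82.

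Without TM, AT3G57220 was the more abundant of the pair, and with TM, GPT was. Per kilobase of exon, GPT made up 40.0% ± 3.81 of the summed level of both genes in WT with DMSO (SD, n = 3) and 71.9% ± 2.43 with TM. The share moved from 40.4% ± 2.31 to 72.2% ± 1.62 in ire1b and from 39.8% ± 1.56 to 64.9% ± 1.70 in ire1a1b. The mean shift over the genotypes was 29.6 percentage points, and the shares of treated and untreated libraries did not overlap in any genotype. The pairs were chosen with these responses known, so their shares are given as a description. The summed level of the pair per kilobase rose from 27.6 to 58.5 CPM in WT, with 26.7 and 62.2 in ire1b and 27.4 and 51.5 in ire1a1b. The coding sequences of the pair were identical at 85.7% of aligned bases, and the longest identical stretch of their transcripts was 39 bases against reads of 250 nt. GPT also overlaps 82 bases of AT2G41500 on the other strand, and the counting was not stated to use strand. AT2G41500 stood at 40.2 CPM with DMSO and 40.7 with TM in WT, with log2 changes of 0.02 to 0.10 over the genotypes, none of them called.

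**Figure D2:**
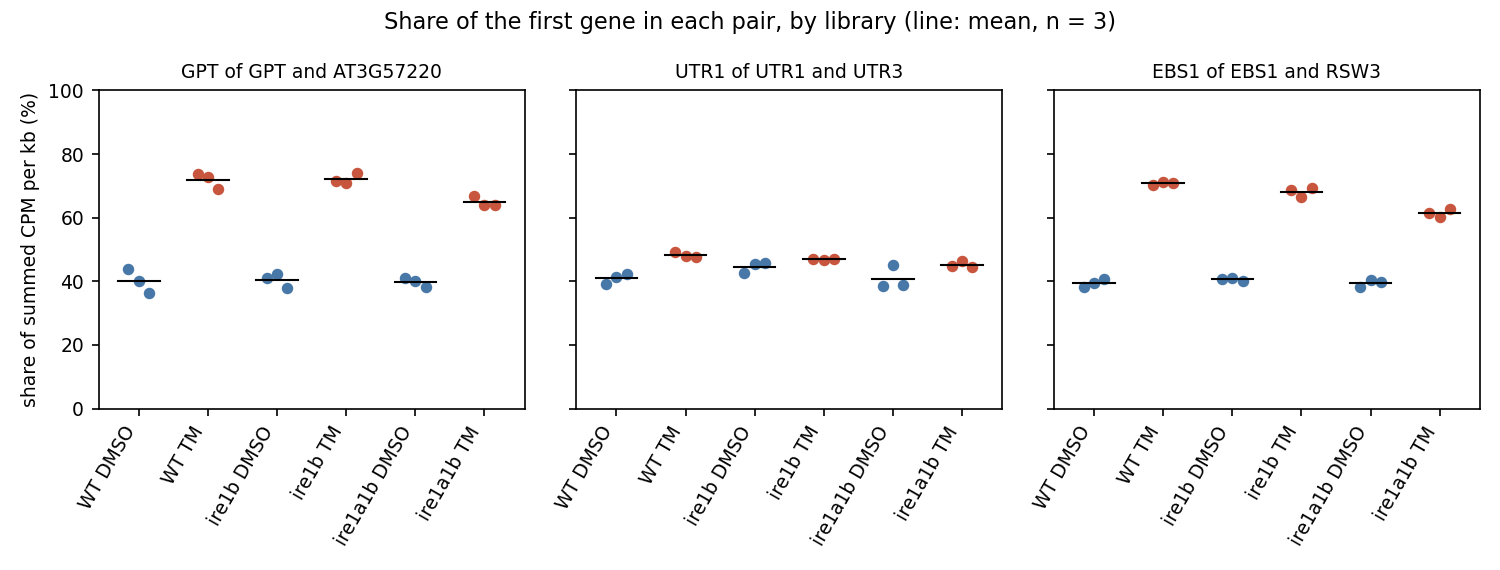
Share in percent of the first gene of each pair in the pair's summed CPM per kilobase, for every library, by genotype and treatment. The GPT and EBS1 shares move from 36.2% to 43.9% with DMSO to between 60.3% and 74.0% with TM, and the UTR1 share moves by only 4.70 percentage points.

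ALG3 (AT2G47760, chromosome 2, 19564795 to 19568438, minus strand), which adds the first mannose on the luminal side, did not pass the test in any genotype. It stood at 20.5, 20.9 and 19.1 CPM in WT with DMSO and at 21.6, 20.4 and 20.3 with TM. Over all 18 libraries it ranged from 18.1 to 21.6 CPM, and treated and untreated libraries overlapped in every genotype. The log2 change was 0.04 (95% interval -0.11 to 0.19) in WT, -0.05 (-0.20 to 0.10) in ire1b and 0.01 (-0.14 to 0.16) in ire1a1b.

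The transporters gave the largest responses of the 8 genes. UTR1 (AT2G02810, chromosome 2, 801527 to 803521, plus strand) and UTR3 (AT1G14360, chromosome 1, 4911093 to 4913167, minus strand) both carry UDP-glucose into the ER. UTR1 rose 14.5-fold in WT, 11.4-fold in ire1b and 10.2-fold in ire1a1b, and UTR3 rose 10.7-fold, 10.4-fold and 8.70-fold. In WT, UTR1 stood at 17.5, 21.5 and 19.1 CPM with DMSO and at 289, 280 and 270 with TM. In ire1b it stood at 22.5, 22.9 and 26.7 with DMSO and at 272, 268 and 284 with TM. In ire1a1b it stood at 18.2, 27.4 and 18.8 with DMSO and at 232, 222 and 206 with TM. Replicate 2 of ire1a1b with DMSO was the highest untreated library, and the lowest treated library of any genotype was at 206 CPM. The log2 changes of UTR1 were 3.85 ± 0.14 (SE, adjusted p = 1e-11), 3.51 ± 0.14 (2.5e-11) and 3.36 ± 0.14 (7.8e-11) in WT, ire1b and ire1a1b.

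UTR3 stood at 28.4, 31.9 and 26.9 CPM in WT with DMSO and at 309, 318 and 310 with TM. In ire1b it stood at 31.7, 28.8 and 33.1 with DMSO and at 319, 319 and 333 with TM. In ire1a1b it stood at 30.0, 34.5 and 31.1 with DMSO and at 297, 267 and 269 with TM. As for GPT, the TM libraries of ire1a1b were the lowest treated ones for both transporters. The difference between the ire1a1b and WT responses did not pass the edgeR test for either (adjusted p = 0.13 for each). The log2 changes of UTR3 were 3.42 ± 0.08 (SE, adjusted p = 1.6e-13), 3.38 ± 0.08 (1.8e-13) and 3.12 ± 0.08 (2.1e-12). UTR3 overlaps 76 bases of AT1G14350 (FLP) on the other strand, and FLP fell with TM, by 0.38 on the log2 scale in WT (adjusted p = 0.015).

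Unlike the GPT pair, the transporters rose together. Their summed level per kilobase rose from 35.1 to 430 CPM in WT, with 40.1 and 434 in ire1b and 38.7 and 361 in ire1a1b. UTR1 made up 40.9% ± 1.70 of this sum in WT with DMSO (SD, n = 3) and 48.3% ± 0.925 with TM, 44.5% ± 1.70 and 46.9% ± 0.207 in ire1b, and 40.9% ± 3.797 and 45.2% ± 1.08 in ire1a1b. The mean shift was 4.70 percentage points toward UTR1, and in ire1a1b the shares of treated and untreated libraries overlapped. Their coding sequences were identical at 83.8% of aligned bases, with a longest identical transcript stretch of 23 bases.

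In the glucose cycle, the enzyme that adds glucose rose and the enzymes that remove it did not. EBS1 (AT1G71220, chromosome 1, 26841550 to 26851959, plus strand) rose 3.22-fold in WT, 3.25-fold in ire1b and 2.67-fold in ire1a1b. It stood at 144, 143 and 149 CPM in WT with DMSO and at 455, 466 and 482 with TM. In ire1b it stood at 147, 156 and 148 with DMSO and at 498, 470 and 499 with TM. In ire1a1b it stood at 146, 151 and 137 with DMSO and at 399, 372 and 387 with TM. No treated library overlapped an untreated one, and all 3 treated ire1a1b libraries lay below those of WT and ire1b. The difference between the ire1a1b and WT responses did not pass the edgeR test (adjusted p = 0.073). The log2 changes were 1.69 ± 0.06 (SE, adjusted p = 9.1e-12), 1.70 ± 0.06 (7.8e-12) and 1.42 ± 0.06 (1.3e-10).

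GCS1 (AT1G67490, chromosome 1, 25280410 to 25286749, minus strand), glucosidase I, fell in all genotypes by a small amount. In WT it stood at 34.1, 39.3 and 42.9 CPM with DMSO and at 29.2, 28.9 and 34.2 with TM, groups that overlap at replicate 1 with DMSO and replicate 3 with TM. In ire1b it stood at 40.6, 36.5 and 43.3 with DMSO and at 27.1, 30.6 and 31.2 with TM. In ire1a1b it stood at 35.8, 41.4 and 44.9 with DMSO and at 28.5, 30.7 and 28.9 with TM. In the mutants the treated libraries lay below the untreated ones without overlap. The log2 changes were -0.33 ± 0.10 (SE, adjusted p = 0.049), -0.44 ± 0.10 (0.0061) and -0.47 ± 0.10 (0.0057). The WT call is at the threshold and was lost without 1 of 4 single libraries in turn. Adjusted p was 0.12 without replicate 2 and 0.19 without replicate 3 of WT with DMSO. It was 0.13 without replicate 1 and 0.18 without replicate 2 of WT with TM. Of 13 alternatives, 7 called GCS1 in WT, with adjusted p from 0.0049 (with a replicate block) to 0.19.

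RSW3 (AT5G63840, chromosome 5, 25544907 to 25549199, plus strand), glucosidase II alpha, passed the test in WT, where it fell, and not in ire1b or ire1a1b, and its response in ire1a1b differed from that in WT. In WT it stood at 144, 135 and 134 CPM with DMSO and at 119, 115 and 121 with TM, so that all treated libraries were lower. In ire1b it stood at 132, 138 and 136 with DMSO and at 139, 146 and 136 with TM. In ire1a1b it stood at 146, 137 and 127 with DMSO and at 155, 150 and 142 with TM, and the groups overlapped in both mutants. The log2 change was -0.21 ± 0.06 (SE, adjusted p = 0.026) in WT, 0.06 ± 0.06 (0.59) in ire1b and 0.13 ± 0.06 (0.18) in ire1a1b. The difference between the ire1a1b and WT responses was 0.34 ± 0.08 (adjusted p = 0.022). The WT call was lost without any 1 of 4 libraries. Adjusted p was 0.13 without replicate 1 of WT with DMSO. It was 0.11, 0.053 and 0.055 without replicates 2, 1 and 3 of WT with TM. The call was also lost without the 4 replicate 1 libraries together (0.05, not below the threshold). Of 13 alternatives, 7 called RSW3 in WT, with adjusted p from 0.0042 to 0.17.

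The RNA levels of EBS1 and RSW3 changed order with TM. EBS1 made up 39.4% ± 1.24 of the summed EBS1 and RSW3 level per kilobase in WT with DMSO (SD, n = 3) and 70.8% ± 0.572 with TM. The share moved from 40.6% ± 0.545 to 68.2% ± 1.54 in ire1b and from 39.4% ± 1.24 to 61.4% ± 1.14 in ire1a1b. The mean shift was 27.0 percentage points, which follows from the changes given above, mainly that of EBS1. RSW3 passed the test only in WT, with a log2 change of -0.21 beside 1.69 for EBS1.

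**Figure D3:**
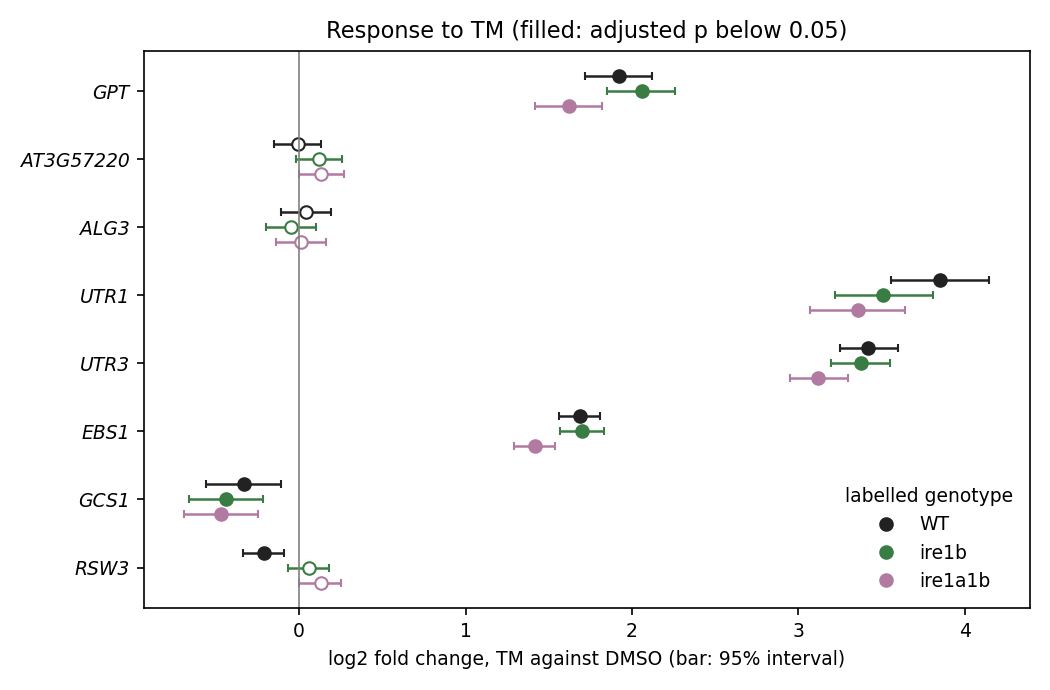
Log2 fold change of TM against DMSO for each of the 8 genes in WT, ire1b and ire1a1b, with 95% intervals from the edgeR fit. UTR1 and UTR3 lie highest, GPT and EBS1 between 1.42 and 2.06, and the remaining genes within 0.47 of 0.

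Whether the responses depended on IRE1 was tested as the difference of TM responses between genotypes. In ire1a1b against WT, 1 of the 8 genes (RSW3, above) was called, where 6.12% of all tested genes were. In ire1b against WT, 0 of 8 were called, where 4.15% of all tested genes were, and 1 (RSW3) had an unadjusted p below 0.05 and was called by DESeq2. In ire1a1b against ire1b, 0 of 8 were called, where 0.776% were, and 3 (GPT, UTR3 and EBS1) had an unadjusted p below 0.05, of which DESeq2 called EBS1. These 3 comparisons share libraries. Of the 4 genes that rose, DESeq2 called only EBS1 in ire1a1b against WT (adjusted p = 0.0018). By edgeR, all 4 had lower point estimates in ire1a1b than in WT that did not pass the adjusted test. The differences were -0.31 (95% interval -0.58 to -0.03, adjusted p = 0.23) for GPT, -0.50 (-0.88 to -0.12, 0.13) for UTR1, -0.30 (-0.53 to -0.07, 0.13) for UTR3 and -0.27 (-0.44 to -0.09, 0.073) for EBS1, and each unadjusted interval excluded 0. With a replicate block, which the correlation of same-numbered libraries allowed in this comparison, EBS1 passed the test (adjusted p = 0.036) and GPT (0.051), UTR1 (0.069) and UTR3 (0.079) did not.

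With both IRE1 genes labelled as mutant, UTR1 rose 10.2-fold, UTR3 8.70-fold, GPT 3.07-fold and EBS1 2.67-fold. NAC103, a transcription factor gene induced through IRE1 and bZIP60, stood at 2.02 CPM with DMSO and 138 CPM with TM in WT, but at 1.49 and 1.94 CPM in ire1a1b. NAC103 and BIP3 were the treatment check, IRE1A and IRE1B the label check. Of these 4, 2 rose with TM in WT, 2 in ire1b and 1 in ire1a1b, beside 6.13%, 10.9% and 8.27% of all tested genes. The response of 2 of the 4 was lower in ire1a1b than in WT. In ire1a1b against ire1b, DESeq2 called BIP3 (-1.63, adjusted p = 0.008) and edgeR did not. With DMSO, edgeR called BIP3 higher in ire1b than in WT, but not in the compared groups alone (adjusted p = 0.88). In ire1b against WT, the estimates for GPT, UTR3 and EBS1 were 0.13 (95% interval -0.14 to 0.41), -0.05 (-0.28 to 0.18) and 0.02 (-0.16 to 0.19), and that for UTR1 was -0.34 (-0.72 to 0.04, adjusted p = 0.45). RSW3 differed by 0.27 ± 0.08 in ire1b against WT, which did not pass (adjusted p = 0.098). Between ire1a1b and ire1b, GPT differed by -0.44 (-0.72 to -0.16, adjusted p = 0.23) and EBS1 by -0.28 (-0.46 to -0.11, 0.22). When replicate 1 of WT and of ire1a1b was left out (4 libraries), the ire1a1b against WT differences were -0.32 for GPT, -0.56 for UTR1, -0.39 for UTR3, -0.30 for EBS1 and 0.33 for RSW3, and RSW3 was the gene called (adjusted p = 0.024). The TM changes of GPT, UTR1, UTR3 and EBS1 were then 1.95, 3.77, 3.42 and 1.70 in WT and 1.62, 3.20, 3.03 and 1.40 in ire1a1b.

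In DMSO, 0 of 8 were called in ire1b against WT, where 0.0291% of all tested genes were, 0 of 8 in ire1a1b against WT, where 0.131% were, and 0 of 8 in ire1a1b against ire1b, where 0.16% were, and DESeq2 also called 0 of 8 in each. Of these 24 values, 1 had an unadjusted p below 0.05, the difference of 0.31 (95% interval 0.04 to 0.59, adjusted p = 0.88) for UTR1 in ire1b against WT. The 3 ire1b libraries (22.5 to 26.7 CPM) lay above those of WT (17.5 to 21.5 CPM). Over the 20615 tested genes, edgeR gave 825, 431 and 671 genes with an unadjusted p below 0.05 in these 3 comparisons.

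The order of levels per kilobase of exon changed with TM. In WT with DMSO, RSW3 was highest at 43.1 ± 1.62 CPM per kilobase (SD, n = 3), followed by EBS1 at 28.0 ± 0.673, UTR3 at 20.7 ± 1.81, AT3G57220 at 16.6 ± 1.09, UTR1 at 14.4 ± 1.495, GCS1 at 13.1 ± 1.496, GPT at 11.1 ± 1.37 and ALG3 at 9.62 ± 0.449. From AT3G57220 down, each gene overlapped its neighbour in this order. In WT with TM, UTR3 was highest at 222 ± 3.44, followed by UTR1 at 208 ± 7.04, EBS1 at 90.1 ± 2.59, GPT at 42.1 ± 2.69, RSW3 at 37.1 ± 0.901, AT3G57220 at 16.4 ± 0.968, GCS1 at 10.4 ± 1.01 and ALG3 at 9.90 ± 0.352, and only the last pair overlapped. The same 3 genes led with TM in the mutants. GPT and RSW3 overlapped in ire1b with TM (44.9 ± 1.33 and 44.03 ± 1.66), and in ire1a1b RSW3 (46.7 ± 1.98) lay above GPT (33.5 ± 2.41).

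The other genes of the pathway were read from 7 lists of 60 genes, of which 59 were tested. Beside the list counts below, 6.13%, 10.9% and 8.27% of all tested genes rose in WT, ire1b and ire1a1b. The shares that fell were 5.77%, 11.6% and 6.59%. The median log2 change of the 8 genes was 0.86 in WT, 0.91 in ire1b and 0.78 in ire1a1b, against -0.02, -0.01 and -0.02 over all tested genes. In WT this median fell in a gap between the 4 genes that rose, at 1.69 to 3.85, and the others, at -0.33 to 0.04. The glucose trimming and lectin folding cycle stood highest, with medians of 2.77, 2.99 and 2.70 over 6 genes. In WT, 4 of these 6 rose and 1 fell. Calnexin CNX1 rose by 3.61 ± 0.10 in log2 (SE, adjusted p = 6.6e-13) and AT5G07340, of the same family, by 3.58 ± 0.08, and the calreticulin genes AT1G56340 and AT1G09210 rose by 2.19 ± 0.07 and 3.35 ± 0.10. CRT3, a calreticulin of plants that acts on immune receptors, fell by 0.43 on the log2 scale (adjusted p = 0.018), a call lost without replicate 2 (0.078) or 3 (0.069) of WT with DMSO or replicate 1 (0.055) or 3 (0.063) of WT with TM. PSL4, the beta subunit that retains glucosidase II in the ER, had a log2 change of -0.04 (95% interval -0.16 to 0.07), so that neither glucosidase II subunit rose in WT while 4 of the 5 lectin genes did. In ire1a1b against WT, the response of 1 of the 6 was higher and of 1 lower (6.12% of all tested genes called). DESeq2 and a replicate block each also called CNX1 (-0.42) and AT1G09210 (-0.41) lower. In ire1a1b against ire1b, 2 of the 6 were lower (0.776% called), and in ire1b against WT 0 were called.

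Of 17 genes of lipid-linked oligosaccharide assembly, 2 rose in WT (5 with a replicate block), 5 in ire1b and 3 in ire1a1b, beside 6.13%, 10.9% and 8.27% of all tested genes. None fell in this fit, and the medians were 0.07, 0.15 and 0.06. AT2G44660, annotated in the ALG6 and ALG8 glucosyltransferase family that adds the glucoses before transfer, rose by 1.80 ± 0.08, 1.88 ± 0.08 and 1.78 ± 0.08 in WT, ire1b and ire1a1b. EBS3 (ALG9, AT1G16900), an ALG9-type mannosyltransferase, rose by 0.61 ± 0.10 in WT but by 2.15 ± 0.10 and 2.21 ± 0.10 in ire1b and ire1a1b, and its response differed from WT by 1.55 (adjusted p = 8.1e-06) and 1.60 (3.8e-06). Of the other 15 genes, LEW1, DPMS1 and the ALG6-type AT5G38460 rose in ire1b, and DPMS1 also in ire1a1b, by 0.29 to 0.58. The AT5G38460 call was lost without replicate 2 of ire1b with DMSO (adjusted p = 0.052) or with TM (0.06). The DPMS1 call in ire1a1b was lost in a fit to the compared groups alone (0.074).

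At the transfer step, 6 of 9 tested oligosaccharyltransferase genes rose in WT, 4 in ire1b, and 4 in ire1a1b where 1 fell. Of all tested genes, 6.13%, 10.9% and 8.27% rose, and the list medians were 0.19, 0.18 and 0.10. The WT count was 3 without replicate 2 or without replicate 3 of WT with TM, where STT3B (adjusted p = 0.052 and 0.12), DAD1 (0.15 and 0.1) and DAD2 (0.072 and 0.078) were no longer called. The catalytic subunit STT3A rose by 0.90 ± 0.06, 1.07 ± 0.06 and 1.05 ± 0.06. The gene that fell in ire1a1b was the other catalytic subunit, STT3B, by 0.20 (adjusted p = 0.016), a call lost without replicate 3 of ire1a1b with TM (0.067), without the 4 replicate 1 libraries (0.059) and in a fit to the compared groups alone (0.12). HAP6, the ribophorin II-type subunit, rose by 0.93 ± 0.06 in WT and by 0.31 ± 0.06 in ire1a1b, with a difference of -0.63 (adjusted p = 0.00041). After transfer, 2 of 6 genes for mannose trimming and the degradation lectin rose in each genotype. The second of them in ire1a1b was MNS1, whose small change was not called without replicate 2 (adjusted p = 0.13) or 3 (0.14) of ire1a1b with DMSO or replicate 1 (0.19) or 2 (0.1) of ire1a1b with TM, nor without a filter (0.086) or at 1 CPM in 3 libraries (0.055), which leaves 1. OS9, a lectin of ER-associated degradation, rose by 2.70 ± 0.07 in WT and by 1.71 ± 0.07 in ire1a1b, with a difference of -0.98 (adjusted p = 4.6e-06). Of the 8 genes of Golgi N-glycan processing, edgeR and DESeq2 called 0 for TM in each genotype, with an unadjusted p below 0.05 in edgeR for 2 in WT, 1 in ire1b and 1 in ire1a1b, and the medians were 0.06, 0.14 and 0.10. With a replicate block, 1 Golgi gene rose in WT and 1 in ire1b.

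For nucleotide sugar supply, 3 of 7 genes for synthesis of UDP-GlcNAc and UDP-glucose rose in WT, 2 in ire1b and 1 in ire1a1b. Of all tested genes, 6.13%, 10.9% and 8.27% rose, and the list medians were 0.25, 0.13 and -0.03. In WT, UGP2 was not called without replicate 2 (adjusted p = 0.13) or 3 (0.18) of WT with DMSO. Nor was it without replicate 1 (0.14), 2 (0.077) or 3 (0.094) of WT with TM. The call was also lost without a filter (0.058), at 1 CPM in 3 libraries (0.053) and in the compared groups alone (0.19). In ire1b the count was 1 without replicate 3 of ire1b with DMSO or replicate 2 of ire1b with TM. GFAT (AT3G24090), which catalyses the entry step toward UDP-GlcNAc, rose by 3.43 ± 0.14 in WT (adjusted p = 6.9e-11), 3.30 ± 0.14 in ire1b and 2.46 ± 0.14 in ire1a1b, and the response in ire1a1b differed from WT by -0.97 (adjusted p = 0.0053). UGP1, which makes UDP-glucose, rose by 0.63 ± 0.09 in WT, and its response in ire1a1b differed by -0.62 (adjusted p = 0.0049). Of the 6 other UDP-sugar transporters of the UTR type, 0 were called in WT by edgeR or DESeq2 (0 at an unadjusted p below 0.05 in edgeR), and AT5G65000 rose in ire1b (0.44 ± 0.09) and ire1a1b (0.37 ± 0.09). Their medians were 0.11, 0.02 and -0.12, beside 3.85 and 3.42 for UTR1 and UTR3 in WT.

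**Figure D4:**
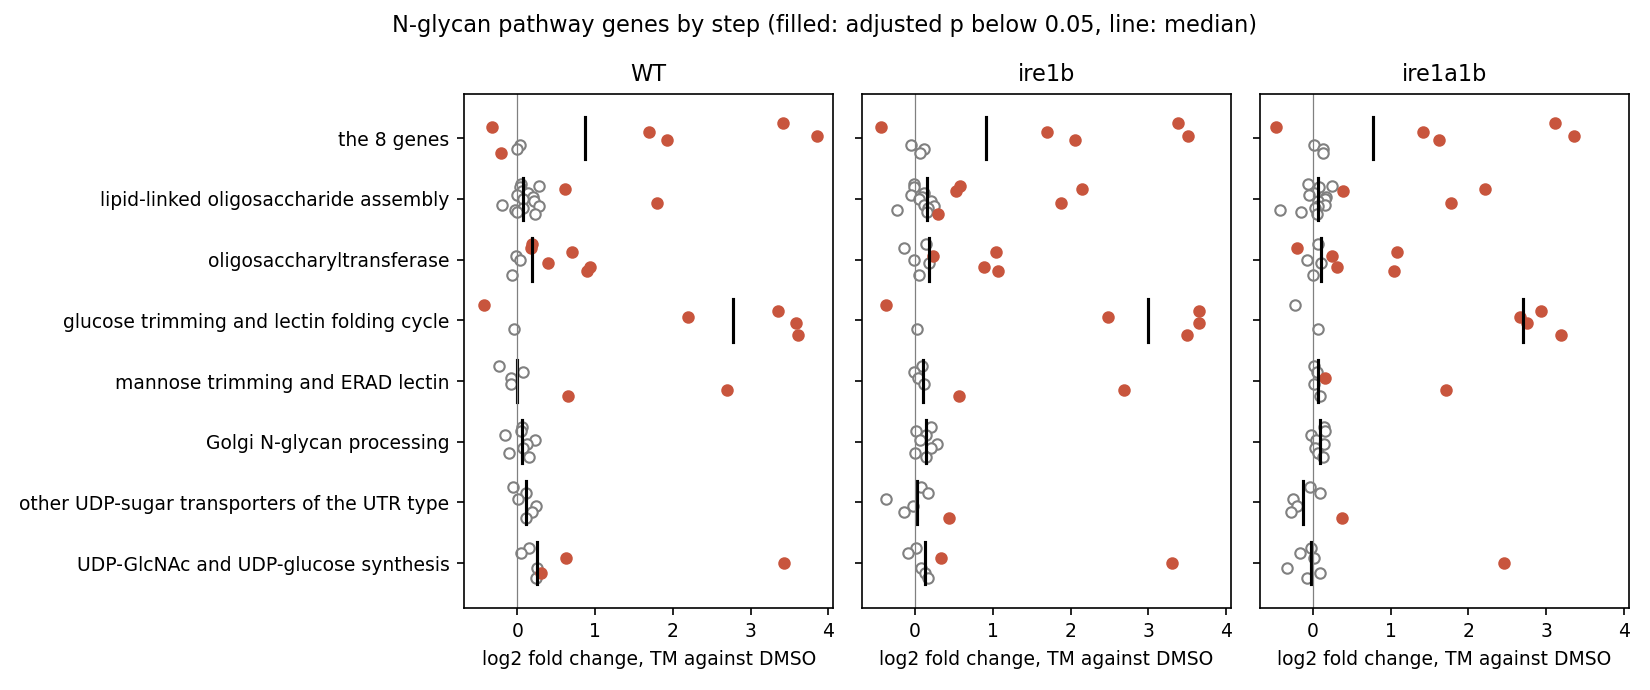
Log2 fold change of TM against DMSO for the genes of the 7 pathway lists and the 8 genes, by pathway step and genotype. Filled points are called genes and bars are medians. In WT, CNX1, AT5G07340, AT1G09210, UTR1, UTR3 and GFAT lie above 3, while no Golgi gene is filled.

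The genes whose pattern over the 18 libraries lay nearest were found by the root mean square difference of log2 CPM, after centring, among 16470 genes. GPT, whose own SD was 0.96, lay nearest to AT4G29960 (0.10), SPP (0.11), a signal peptide peptidase, and ROC7 (0.13), a cyclophilin. UTR1 (SD 1.84) lay nearest to PDIL2-2 (0.12), CNX1 (0.13) and BIP1 (0.16), which encode a protein disulfide isomerase, calnexin and an ER Hsp70. UTR3 (SD 1.70) lay nearest to AT4G29520 (0.12), CNX1 (0.12) and Hrd1B (0.13), a ubiquitin ligase of ER-associated degradation. EBS1 (SD 0.83) lay nearest to SEC61 BETA (0.09), a subunit of the protein channel of the ER, AT2G34250 (0.09) and AT1G52600 (0.10). GCS1 (SD 0.24) and RSW3 (SD 0.11) varied less, with MYB13 at 0.09 and AT4G31340 at 0.04 the nearest. All these distances share the same libraries and depth and are a description.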

How the data were processed

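PolyA RNA of 18 libraries was sequenced as paired-end reads of 250 nt, per the labels' protocols. Per the submitters' processing notes, the authors used STAR 2.4.0, the TAIR10 build and HTSeq 0.6.0, and DESeq2 is listed with no version. The deposited files hold raw counts per gene. How HTSeq treated strand and overlaps, and which annotation it read, is not given in the sources used here. The summary rows that name no gene held 5.71% to 6.22% of all counts and were left out. Of 27416 identifiers, 26719 matched the TAIR10.1 annotation, which gave coordinates, exon lengths and upstream sequences.

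The filter filterByExpr kept 20615 genes and dropped 6801. TMM factors ran from 0.947 to 1.07. A robust quasi-likelihood fit (edgeR 4.0.16, R 4.3.3) took all 18 libraries, with a mean for each of the 6 groups. There were 9 comparisons, and p-values were adjusted by Benjamini-Hochberg within each. Standard errors were derived from the F statistic. The fit was tested on simulated data with known changes. Pair shares, motifs and figures used Python 3.11.15 with Biopython 1.88. The members and lists were chosen with earlier results of these data known. Named genes were the 8 members, any gene of the 7 lists, the label, treatment and marker genes, and the 3 nearest patterns of each member called for TM in WT. Genes that overlap a member were added after the values were seen.

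Replicates were numbered by the titles, since a replicate tag in the labels conflicts with them. No source says that they are separate cultures, so p-values reflect only the spread of these samples, possibly a technical one. Replicates differed by more than counting noise (chi-square 2.73 to 57.7 per degree of freedom). Residuals of same-numbered libraries correlated at 0.57 to 0.74 in the TM comparison of WT, at 0.20 to 0.39 in that of ire1b, at 0.51 to 0.77 in that of ire1a1b, at 0.42 to 0.88 between ire1a1b and WT responses and at 0.65 to 0.88 between ire1a1b and WT with DMSO, all over 0.1, and the lowest value was at or below 0.07 in the other 4 comparisons. By this measure the numbers paired the samples in the first 5, from the data and not from the labels. The main fit and its calls did not use this pairing, which entered only in the replicate block, an alternative. Alternatives were DESeq2 1.42.0, other scaling and filters, fits to the compared groups alone, a replicate block, leaving out the 4 replicate 1 libraries of WT and ire1a1b, and leaving out each library in turn.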

Additional observations from a re-analysis of the deposited data

Results flagged for a closer look

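The TM response of RSW3 differed between ire1a1b and WT, by the test of the difference itself, by 0.34 ± 0.08 on the log2 scale (edgeR, adjusted p = 0.022). RSW3 fell in WT from 138 ± 5.16 to 119 ± 2.88 CPM (mean ± SD, n = 3) and stood at 137 ± 9.23 and 149 ± 6.31 CPM in ire1a1b. All 3 treated WT libraries were below the untreated ones, while in ire1a1b the groups overlapped. Over 19 other settings the adjusted p ranged from 0.0011 to 0.1, and it was below 0.05 in 14 of them. The ire1a1b and ire1b responses differed by 0.07 ± 0.08, which was not called.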

How the results depend on the processing

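The TM calls of GPT, UTR1, UTR3 and EBS1 held in all 13 alternatives in each genotype. No member's called value changed direction in 1080 member values under alternatives, where 1056 kept their side of the threshold, 17 lost it and 7 gained it, and 46 uncalled values changed sign. The number of members called for TM was 4 to 5 in WT and 5 to 5 in each mutant when each library was left out in turn.

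For the difference of ire1b from WT, a replicate block and DESeq2 each called 1 member (RSW3, adjusted p = 0.038 and 0.025) where the fit above called 0. For ire1a1b against WT, with 1 called, the block and DESeq2 each called 2, EBS1 being added (0.036 and 0.0018), and a fit to the compared groups alone called 0. Leaving out each library in turn gave 0 to 2, with 0 without replicate 1 of WT with DMSO, replicate 2 of WT with TM, replicate 3 of ire1a1b with DMSO or replicate 1 of ire1a1b with TM, and 2 (UTR1 at -0.61 added) without replicate 1 of ire1a1b with DMSO. For ire1a1b against ire1b, with 0 called, the block called 1 (GPT, 0.03) and DESeq2 1 (EBS1, 0.0034). The block changed no other member's call. In the comparisons of ire1b with WT and with ire1a1b the libraries share only a number. The cause of these changes was not tested.

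GCS1 for TM in WT was not called without a filter (0.054) or in the compared groups alone (0.16), nor was RSW3 in the latter (0.17). Over all tested genes, TM in WT called 2453 genes against 4142 with the block, 848 in the compared groups alone, 1553 without replicate 2 and 1606 without replicate 3 of WT with TM. TM in ire1a1b called 3064 against 4844 and 1567. The responses against WT called 855 in ire1b (1567 with the block, 1295 without the 4 replicate 1 libraries) and 1262 in ire1a1b (2341 with the block), and ire1a1b against ire1b 160 (316 with the block, 270 with DESeq2, 254 without those 4). In DMSO, ire1b against WT called 6 (10 with DESeq2, 0 in the compared groups alone, 0 to 6 leaving out libraries), ire1a1b against WT 27 (1 in the groups alone) and ire1a1b against ire1b 33 (7). Among the lists, a fit to the compared groups alone called 1 gene of oligosaccharide assembly and 3 oligosaccharyltransferase genes in WT, and 2 and 2 in ire1a1b. It called 1 gene of mannose trimming there, as did the fit without those 4 libraries, which called 2 Golgi genes in ire1b. The pair shares, with settings chosen after seeing the data, shifted the same way in all 20 settings, by 28.9 to 30.2 points for GPT, 3.91 to 5.43 for UTR1 and 24.7 to 27.3 for EBS1.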
